A study of Homo sapiens with 6 samples.

Results

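The zinc finger genes of chromosome 19 were examined in J82, an established human bladder cancer cell line in 2 engineered versions. One, tet-ZFP36L1, makes extra ZFP36L1 when doxycycline is added, and the other, tet-control, is its control. The members were the protein-coding genes of chromosome 19 whose symbol is ZNF followed by a number and whose estimated counts, summed per gene, averaged at least 50 over the 6 libraries. They were 187 of the 239 chromosome 19 genes with such a symbol, and 187 of 11907 genes measured at that level. Each line was grown to near confluence and sampled without doxycycline (0 h) and after 6 h and 24 h in 1 µg/mL doxycycline. There were thus 6 groups, tet-ZFP36L1 at 0, 6 and 24 h and tet-control at 0, 6 and 24 h, with 1 library of total RNA in each. Doxycycline was given to both lines. The labels do not say whether a line is 1 clone or a pool. There were no replicates, so differences are described without tests or p-values. The intervals in parentheses are 95% intervals that cover counting error and leave out the variation between cultures.

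Most zinc finger genes of human chromosome 19 encode KRAB zinc finger proteins, which are repressors of transcription. The finger array reads DNA, often in a transposable element, and the KRAB domain recruits TRIM28, which brings the histone methyltransferase SETDB1, HP1 proteins and histone deacetylases to the site. The genes arose by tandem duplication and lie in clusters of near relatives, and their mRNAs are known in general for low levels and short half-lives. ZFP36L1 belongs to a small family of proteins that attach to AU-rich stretches of a 3′ UTR and hasten the decay of that mRNA. Half-lives were not measured here.

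The members looked like this family in sequence. A pattern of the KRAB domain was found in the translated coding sequence of 157 members, and 30 had none. In 22 members the pattern lay in the longest annotated protein but not in that of the transcript with the highest mean TPM (transcripts per 1000000 transcripts, a level scaled for length). A SCAN pattern was found in 2 members. The number of C2H2 fingers per protein had a median of 12 and ran from 0 in ZNF738 to 31 in ZNF91, and 156 members carried the TGEKP linker between fingers. One finger with its linker is shown, since fingers of this form make up most of each coding sequence and are what near relatives share. The capitals mark the codons of the pair of cysteines and the pair of histidines that hold the zinc ion. The stretch lies in a coding exon of ZNF468, at chr19:52881556-52881639 on the minus strand of GRCh38.
ZNF468 finger: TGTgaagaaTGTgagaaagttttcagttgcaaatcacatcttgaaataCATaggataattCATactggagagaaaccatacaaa

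Shared sequence limits how reads can be divided among the members. The median member shared 11.3% of its 31-base words with transcripts of other genes, 44 members shared at least 20%, and 9 shared at least 50%. ZNF320 and ZNF468 were the clearest case. The ZNF320 transcript with the most counts, ENST00000595635, has the same 1527 coding bases as the ZNF468 transcript ENST00000391781, with 0 differences, and its copy of the finger has the same genomic position. ZNF320 shared 74.3% of its words and ZNF468 62.8%, so their separate values are uncertain.

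The elements that ZFP36L1 is known to bind were sought in the 3′ UTRs as the 7 letters TATTTAT on the transcript strand. Of the 173 members with an annotated 3′ UTR of at least 50 bases, 120 had no copy, 34 had 1 copy and 19 had 2 or more. Shares of 69.4%, 19.7% and 11% were close to the 71.7%, 17.6% and 10.7% of 9872 protein-coding genes outside chromosome 19. The 3′ UTRs had a median length of 1087 bases and an AU content of 59.7% in the members, against 898 bases and 58.2% outside chromosome 19. Sites of some members described further on are shown, because they let the element be set beside each gene's values. ZNF790, ZNF71, ZNF254, ZNF274 and ZNF724, also named further on, have 1 copy each, which is not shown. The capitals mark the element, and positions are on GRCh38. The ZNF468 site, at chr19:52880349-52880377 on the minus strand, is the first of 3 overlapping copies. The ZNF175 site is at chr19:51589398-51589426 on the plus strand and the ZNF28 site at chr19:52797698-52797726 on the minus strand. The ZNF441 site is at chr19:11783466-11783494 on the plus strand, and the ZNF566 site at chr19:36448105-36448133 on the minus strand.
ZNF468: gtatgttctttTATTTATttatttatttt
ZNF175: tccctattgaaTATTTATataatgaggtt
ZNF28: gattgtatgtgTATTTATatgtttttaat
ZNF441: ttgcacttgcaTATTTATcacagcactat
ZNF566: tatcagttcatTATTTATtgctgatcatt

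The libraries held 20739025 to 21380480 estimated counts each. ZFP36L1 itself stood at 220.2, 3127 and 3133 CPM in the tet-ZFP36L1 series of 0, 6 and 24 h (CPM being counts per 1000000 counts after TMM scaling), against 234, 223 and 206 CPM in tet-control, which matches the labels. At 24 h the tet-ZFP36L1 library differed from all others in breadth. It had 15695 genes with at least 10 counts, against 14515 to 14956 in the other libraries, and a TMM factor of 1.11, against 0.941 to 1.01. Markers of an epithelial cell were mixed. The keratin genes KRT8 and KRT18 stood at 258 CPM or more in all libraries, and KRT7 at 43.9 to 123 CPM. The epithelial genes CDH1, KRT19 and EPCAM stood at no more than 0.749, 0.259 and 4.32 CPM. The urothelial genes UPK2 and UPK3A had 0 counts, and UPK1A, UPK1B and UPK3B stood at no more than 0.595, 0.268 and 0.161 CPM. GATA3 stood at no more than 1.28 CPM. PPARG had 4.86, 1.14 and 2.79 CPM in tet-ZFP36L1 (0, 6 and 24 h), against 16.6, 6.42 and 10.9 CPM in tet-control, so the lines differed in it at 0 h. The mesenchymal gene VIM stood at 722 to 1488 CPM. FN1, the fibronectin gene and another mesenchymal marker, had 9908, 11892 and 2657 CPM in tet-ZFP36L1 (0, 6 and 24 h), against 382, 717 and 392 CPM in tet-control, so the lines differed in it before doxycycline. The part of FN1 and PPARG in the members' values was not tested. The leukocyte gene PTPRC stood at no more than 0.161 CPM, and the endothelial gene KDR had 0 counts in all libraries.

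The members were expressed at low levels. Their mean count per library had a median of 230.4, with quartiles of 150 and 356, against a median of 713 over all measured genes. All but ZNF805 had at least 10 counts in every library. At the minimum, ZNF546 with a mean count of 48.8 and ZNF649 with 49.2 fell just outside, and ZNF730 with 53.0 and ZNF709 with 53.2 just inside. The 52 genes below the minimum included ZNF382, ZNF154 and ZNF671, at mean counts of 9.12, 12.9 and 1.92. The promoters of ZNF154 and ZNF671 are known to be methylated in cancers that include bladder cancer. On the TPM scale the median member stood at 6.36, 7.94 and 8.0 TPM in tet-ZFP36L1 at 0, 6 and 24 h, against 6.22, 7.32 and 5.96 TPM in tet-control.

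The chromosome 19 zinc finger mRNAs as a group were higher in tet-ZFP36L1 after doxycycline than before it. Summed over the 187 members, the level was 2609.8, 3479 and 3269 CPM in tet-ZFP36L1 (0, 6 and 24 h), against 2814, 3188 and 2793 CPM in tet-control. The sum was thus above its own 0 h value at both times in tet-ZFP36L1, and at 6 h alone in tet-control. The highest of a member's 6 values lay in tet-ZFP36L1 at 0, 6 and 24 h for 7, 64 and 55 members, and in tet-control for 14, 35 and 12. The lowest lay in tet-ZFP36L1 for 65, 8 and 26 members, and in tet-control for 27, 10 and 51. Because these are bulk samples, fewer cells that express a gene and less RNA per cell cannot be told apart.

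Each member's own change from 0 h was given as a log2 ratio of CPM + 0.5, which understates changes of low genes. In tet-ZFP36L1 at 6 h the median change was 0.39, and 159 of 187 members (85.0%) lay above 0. Members at least 1.5-fold higher numbered 53 (28.3%), where 9.09% of all measured genes were, and 2 (1.07%) were at least 1.5-fold lower, where 15.6% of all genes were. At 24 h in tet-ZFP36L1 the median was 0.34, with 48 members (25.7%) at least 1.5-fold higher against 11.8% of all genes, and 4 (2.14%) lower against 17.0%. In tet-control the group moved less. At 6 h its median was 0.14, with 9 members (4.81%) higher against 7.47% of all genes and 2 (1.07%) lower against 7.72%. At 24 h the median was -0.05, and 3 members were higher and 3 lower (1.6% each), against 1.6% and 1.92% of all genes. Both changes of a line share its 0 h library, so they are given side by side and were not combined.

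**Figure D1:**
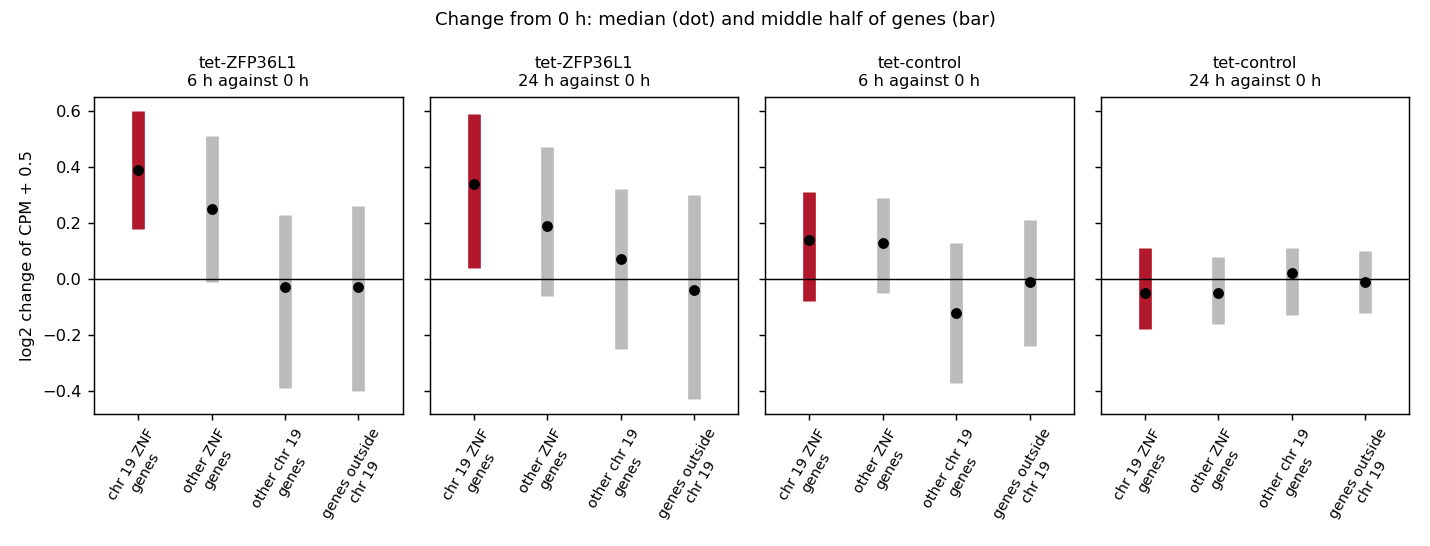
Log2 change of CPM + 0.5 from 0 h in tet-ZFP36L1 at 6 and 24 h and in tet-control at 6 and 24 h, for the 187 chromosome 19 ZNF genes (red) and 3 comparison sets (grey), with dots for medians and bars for the middle 50% of genes. The members' medians were 0.39 and 0.34 in tet-ZFP36L1, against 0.14 and -0.05 in tet-control.

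Other gene sets showed how far this went beyond the members. The 191 ZNF genes on other chromosomes had medians of 0.25 and 0.19 at 6 and 24 h in tet-ZFP36L1, against 0.13 and -0.05 in tet-control. The 634 other protein-coding genes of chromosome 19 had medians of -0.03 and 0.07 in tet-ZFP36L1, against -0.12 and 0.02 in tet-control. The 10259 protein-coding genes outside chromosome 19 had medians of -0.03 and -0.04 in tet-ZFP36L1, against -0.01 and -0.01 in tet-control. In tet-ZFP36L1 the medians of ZNF genes elsewhere in the genome thus lay above 0 with those of the members. Those of the other chromosome 19 genes lay near 0 in tet-ZFP36L1, though at 6 h they lay lower in tet-control. The members' difference from the ZNF genes on other chromosomes was not tested.

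In tet-ZFP36L1 the members' medians lay above those of other genes in every class of mean count at both times. The gap was smaller at 24 h than at 6 h in the classes under 400 counts. Members were set beside protein-coding genes outside chromosome 19 in 4 classes of mean count: 50 to under 100, 100 to under 200, 200 to under 400, and at least 400. In tet-ZFP36L1 at 6 h the members' median changes in these classes were 0.37, 0.29, 0.39 and 0.46, and those of the other genes were -0.19, -0.15, -0.1 and 0.0. At 24 h the members' medians were 0.39, 0.25, 0.33 and 0.42, and those of the other genes 0.25, 0.16, 0.07 and -0.11. Genes of low counts outside chromosome 19 were also higher at 24 h, in the library of wider breadth, and the gap from the members was widest in the class of at least 400 counts. The part of that library in the 24 h values was not tested. The 4 classes held 20, 59, 68 and 40 members, and 677, 910, 1481 and 7191 of the other genes. The class of at least 400 counts has no upper bound, so members and other genes were not matched in level within it. In tet-control at 6 h the members' medians in these classes were -0.11, 0.18, 0.16 and 0.18, against -0.09, -0.14, -0.1 and 0.01 in the other genes. The members thus lay above genes of like counts in tet-control too at 6 h, except in the lowest class. At 24 h in tet-control the medians were -0.16, -0.03, -0.07 and -0.03, against -0.09, -0.08, -0.04 and 0.0.

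The induction difference sets the induced line against what the control line did under doxycycline: it is the log2 change of tet-ZFP36L1 since 0 h, less the change of tet-control. Its median over the members was 0.25 at 6 h and 0.32 at 24 h, and it lay above 0 for 141 and 149 of 187 members. Over all measured genes the medians were -0.01 and -0.02. At 6 h, 35 members (18.7%) were at least 1.5-fold higher, against 7.02% of all genes, and 10 (5.35%) were at least 1.5-fold lower, against 14.3% of all genes. At 24 h, 48 members (25.7%) were higher, against 13.9% of all genes, and 8 (4.28%) were lower, against 17.4%. ZNF genes on other chromosomes had medians of 0.12 and 0.24, with 28 and 44 of 191 higher and 9 and 8 lower. The 634 other protein-coding genes of chromosome 19 had medians of 0.1 and 0.05. At 6 h, 60.7% of them lay above 0, against 60.2% of ZNF genes elsewhere and 48.6% of genes outside chromosome 19. At 24 h these shares were 54.9%, 70.7% and 46.7%. By count class, the members' medians at 6 h were 0.32, 0.19, 0.23 and 0.25, and those of the genes outside chromosome 19 were -0.08, -0.01, -0.03 and -0.01. At 24 h they were 0.54, 0.22, 0.33 and 0.32 for the members and 0.31, 0.21, 0.11 and -0.12 for the other genes, so that in the class of 100 to under 200 counts both medians were nearly alike. Shares at least 1.5-fold higher also depended on the count class. At 6 h they were 30%, 23.7%, 13.2% and 15% of the members, against 14.3%, 13.2%, 10.7% and 4.07% of the genes outside chromosome 19. At 24 h they were 45%, 20.3%, 26.5% and 22.5% of the members, against 35.6%, 29.5%, 20.5% and 7.54% of those genes. The share of all genes at 24 h is thus set mostly by genes of high counts, and in the class of 100 to under 200 counts a smaller share of members than of other genes was higher. Shares at least 1.5-fold lower at 24 h were 5%, 5.08%, 4.41% and 2.5% of the members, against 11.8%, 13.1%, 15.5% and 20% of the genes outside chromosome 19.

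The scaling bears on the size at 24 h. With plain CPM the members' median at 24 h was 0.49, and that of all genes 0.15. With the deposited TPM they were 0.42 and 0.1. The members past 1.5-fold at 24 h, higher and lower, then numbered 72 and 5 with plain CPM, against 20.7% and 12.1% of all genes, and 68 and 4 with TPM, against 18.9% and 13.4% of all genes.

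The members with the largest positive induction differences are described one by one, first those that were high at both times. ZNF544, a KRAB zinc finger gene with 12 fingers, averaged 38.5 TPM, the third highest of the members. The gene (ENSG00000198131) spans chr19:58228594-58277495 on the plus strand of GRCh38. It had 38.9, 77.9 and 64.7 CPM in tet-ZFP36L1 (0, 6 and 24 h), against 63.5, 63.1 and 60.2 CPM in tet-control. The line difference was -0.7 (-0.82 to -0.57) at 0 h, 0.3 (0.19 to 0.41) at 6 h and 0.1 (-0.01 to 0.21) at 24 h. The tet-ZFP36L1 line thus started below the control line, stood above it at 6 h and was close to it at 24 h. The induction difference of ZNF544 was 1.0 at 6 h (0.83 to 1.17) and 0.8 at 24 h (0.63 to 0.97). Both values rest largely on the low start of tet-ZFP36L1. ZNF17, with 18 fingers, had 7.71, 18.3 and 15.3 CPM in tet-ZFP36L1, against 9.63, 9.74 and 8.05 CPM in tet-control. The control values stayed within a narrow range, and the induction difference was 1.18 (0.8 to 1.56) at 6 h and 1.19 (0.8 to 1.57) at 24 h. ZNF790, with 1 copy of the element, had 5.5, 11 and 11.6 CPM in tet-ZFP36L1, against 7.5, 7.65 and 6.48 CPM in tet-control. ZNF441, which carries 1 of the elements shown, had 6.29, 13.4 and 11.9 CPM in tet-ZFP36L1, against 5.76, 6.69 and 4.25 CPM in tet-control. The induction differences of ZNF790 were 0.92 and 1.21, and those of ZNF441 were 0.83 and 1.27.

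ZNF442 had the largest differences of the members with a mean count of at least 150, but they rest on its 0 h library. It had 1.87, 14.5 and 8.79 CPM in tet-ZFP36L1 (0, 6 and 24 h), against 6.55, 12.5 and 4.86 CPM in tet-control. The induction difference was 1.78 (1.29 to 2.27) at 6 h and 2.37 (1.83 to 2.91) at 24 h. Both lines were highest at 6 h, and the lines were 1.58 apart at 0 h on the log2 scale, with a line difference of -1.58. One transcript, ENST00000545749, held 9.58, 238 and 133 estimated counts in tet-ZFP36L1 and 108, 195 and 60.4 in tet-control, and so carried most of the movement. ZNF805, with a mean count of 60.1, had 0.295 CPM at 0 h in tet-ZFP36L1 and differences of 2.76 and 3.18, which rest on that single low value.

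Several members were high at 6 h alone. ZNF93, which is known to repress LINE-1 retrotransposons, had 17.1, 32.8 and 25.8 CPM in tet-ZFP36L1 (0, 6 and 24 h), against 21.2, 20.8 and 26.3 CPM in tet-control. Its induction difference was 0.95 (0.68 to 1.22) at 6 h and 0.28 (0.02 to 0.54) at 24 h. ZNF559 had 8.94, 18.9 and 9.66 CPM in tet-ZFP36L1, against 10.1, 10.2 and 8.96 CPM in tet-control, with differences of 1.04 and 0.27. Both genes were well above the control line at 6 h and close to it at 24 h. ZNF254 had 10.7, 12.7 and 8.05 CPM in tet-ZFP36L1, against 13.7, 8.35 and 10.6 CPM in tet-control. Its difference of 0.92 at 6 h came mostly from the control line, whose own change was -0.68.

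Others were high at 24 h alone or reached their highest value there. ZNF211 had 14.7, 18.1 and 29.8 CPM in tet-ZFP36L1, against 14.9, 16.7 and 11.8 CPM in tet-control, with differences of 0.13 and 1.32. ZNF71 had 7.37, 9.95 and 16.2 CPM in tet-ZFP36L1, against 10.8, 9.68 and 9.97 CPM in tet-control, with differences of 0.56 and 1.19. ZNF784, a gene with 6 fingers and no KRAB pattern, had 5.11, 8.45 and 11.5 CPM in tet-ZFP36L1, against 7.5, 7.01 and 6.88 CPM in tet-control. In each of these 3 genes the tet-ZFP36L1 values stood in the order of time, and the highest was that of 24 h. ZNF30 had 4.32, 7.0 and 9.66 CPM in tet-ZFP36L1, against 9.03, 10.4 and 6.93 CPM in tet-control. Its difference of 1.43 at 24 h rests partly on the low start of tet-ZFP36L1, since the line difference at 0 h was -0.98. ZNF566, another carrier of an element, had 10.7, 10.8 and 15.6 CPM in tet-ZFP36L1, against 16.1, 15.5 and 7.44 CPM in tet-control. Its difference of 1.59 (1.23 to 1.94) at 24 h drew more on the control line, with an own change of -1.06, than on tet-ZFP36L1, with 0.52.

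**Figure D2:**
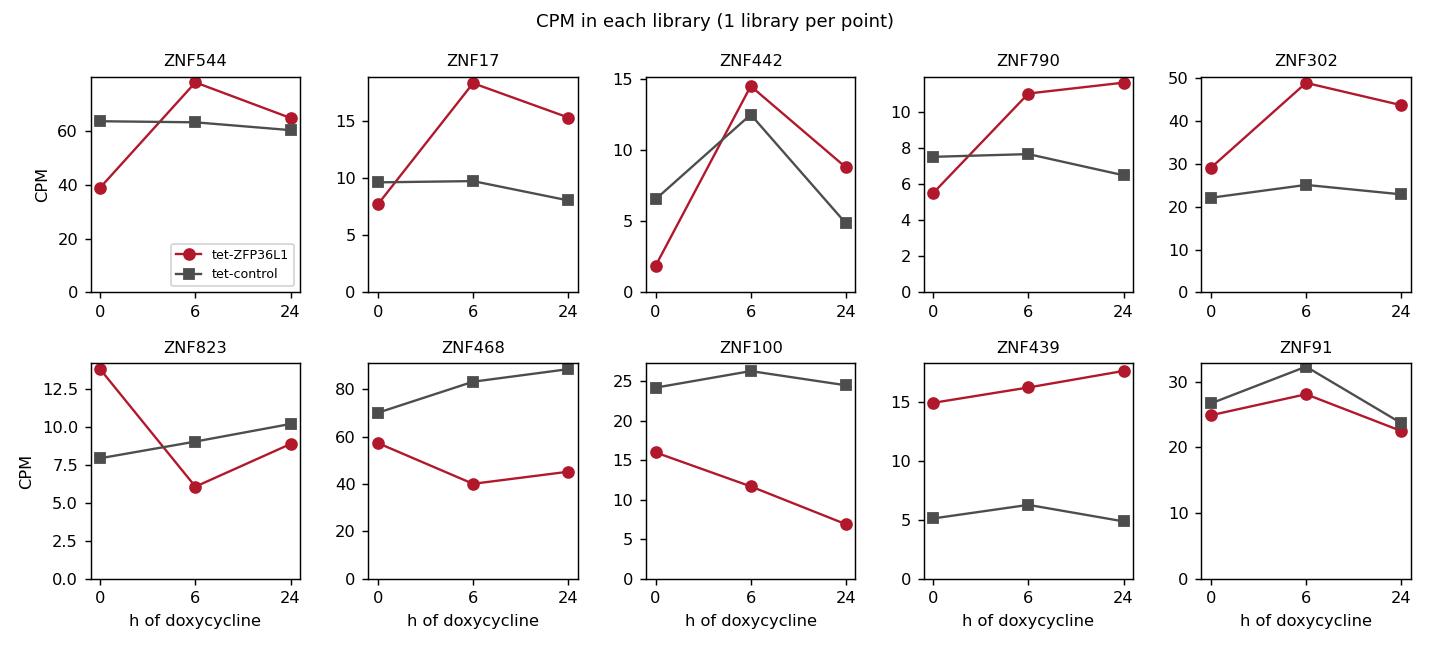
CPM of 10 members at 0, 6 and 24 h of doxycycline, with 1 library per point, tet-ZFP36L1 in red circles and tet-control in grey squares, and every axis from 0. In ZNF544, ZNF17 and ZNF790 the tet-ZFP36L1 points lay below the control at 0 h and above it at 6 and 24 h, whereas in ZNF468 and ZNF100 they lay below the control in all 3 pairs.

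Few members had lower values. At 6 h the 10 members at least 1.5-fold lower were ZNF175, ZNF177, ZNF223, ZNF28, ZNF468, ZNF507, ZNF699, ZNF761, ZNF814 and ZNF823. The 8 at 24 h were ZNF100, ZNF20, ZNF223, ZNF28, ZNF468, ZNF724, ZNF761 and ZNF823. Shared sequence was more frequent among these than among the higher ones. At least 20% of words were shared by 5 of the 10 and 6 of the 8, against 4 of the 35 and 10 of the 48 members that were higher at 6 h and 24 h. Over the 143 members below that limit, 5 were lower at 6 h and 2 at 24 h.

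Among the lower members, ZNF823 had the largest difference at 6 h and little shared sequence (8.56%). The gene (ENSG00000197933) spans chr19:11721265-11739009 on the minus strand of GRCh38. It had 13.8, 6.07 and 8.88 CPM in tet-ZFP36L1 (0, 6 and 24 h), against 7.94, 9.04 and 10.2 CPM in tet-control. Its 0 h value in tet-ZFP36L1 was the highest of the 6, and the induction difference was -1.3 (-1.71 to -0.89) at 6 h and -0.95 (-1.33 to -0.57) at 24 h. Its 3′ UTR has no copy of the element. The ZNF823 transcript ENST00000341191 held 244, 88.5 and 170.4 estimated counts in tet-ZFP36L1 and 112, 57.2 and 165 in tet-control. It was thus lower at 6 h than at 0 h in both lines. Another, ENST00000431998, held 22.4, 22.8 and 17.7 counts in tet-ZFP36L1 and 19.7, 84.7 and 17.2 in tet-control. The difference of the gene at 6 h thus rests partly on that 1 control value. ZNF100 had 16.0, 11.7 and 6.91 CPM in tet-ZFP36L1, against 24.2, 26.3 and 24.5 CPM in tet-control. The control values were level, the tet-ZFP36L1 values were lower at each later time, and the difference was -0.55 at 6 h and -1.17 (-1.49 to -0.85) at 24 h. ZNF507, with 9 fingers and no KRAB pattern, had 46.5, 40.2 and 32.8 CPM in tet-ZFP36L1, against 42.5, 60.1 and 41.2 CPM in tet-control. Its difference of -0.7 (-0.89 to -0.52) at 6 h came mostly from the higher control value at that time.

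The 3 lower members with elements shown lie in 1 cluster. ZNF468 had 57.3, 40.1 and 45.2 CPM in tet-ZFP36L1, against 70.1, 83.2 and 88.5 CPM in tet-control, and differences of -0.76 (-0.92 to -0.59) and -0.67 (-0.83 to -0.52). Its 3′ UTR of 4424 bases holds 4 copies of the element. The ZNF320 transcript that stood for its gene has the same coding bases as that of ZNF468, with a finger at the same genomic position. Its 3′ UTR, of 4416 bases with 4 copies, is thus not a separate case of the element. The differences of ZNF320 were 0.26 (-0.06 to 0.59) and 0.46 (0.1 to 0.81), and the split of reads between both genes is uncertain. ZNF175, also known as OTK18, has 3 copies in 4041 bases and shared only 1.26% of its words. It had 21.4, 17.6 and 15 CPM in tet-ZFP36L1, against 13, 18.4 and 12.9 CPM in tet-control, and differences of -0.76 (-1.06 to -0.46) and -0.48 (-0.8 to -0.17). At 6 h the difference of ZNF175 drew more on the control line, whose own change was 0.49, than on the induced line, with -0.28. At 24 h it drew on the induced line, with -0.5 against -0.02. The line difference of ZNF175 was 0.7 at 0 h, -0.06 (-0.28 to 0.15) at 6 h and 0.22 (-0.01 to 0.44) at 24 h. The gene thus started above the control line and was not clearly below it later. ZNF28 had 13.3, 8.81 and 5.67 CPM in tet-ZFP36L1, against 13.8, 16.5 and 16.0 CPM in tet-control. The lines started alike, and the tet-ZFP36L1 values were lower at each later time. Its differences were -0.82 and -1.36 from counts but 0.08 and 0.29 from the deposited TPM, where a short transcript, ENST00000542421, weighs most. That transcript held 4.83, 9.87 and 12.2 TPM in tet-ZFP36L1 and 13.8, 14.6 and 15.3 TPM in tet-control.

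The other lower members named were smaller or mixed. ZNF761 was higher than at 0 h in both lines, with 9.82, 19.4 and 17.6 CPM in tet-ZFP36L1, against 6.5, 19.8 and 18.4 CPM in tet-control. Its negative differences of -0.59 and -0.63 therefore reflect a larger increase in tet-control. ZNF814 had 10.5, 12.3 and 15.2 CPM in tet-ZFP36L1, against 7.4, 14.1 and 8.2 CPM in tet-control, and its difference was -0.66 at 6 h and 0.38 at 24 h. ZNF724 had 8.0, 7.05 and 4.58 CPM in tet-ZFP36L1, against 11.2, 12.3 and 10.1 CPM in tet-control, with -0.61 at 24 h. ZNF653 did not reach 1.5-fold, with -0.38 and -0.54.

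Across all members, the number of elements went with a smaller range of values than in other genes. Members with 0, 1, and 2 or more copies of TATTTAT had median induction differences of 0.25, 0.25 and 0.06 at 6 h, and 0.33, 0.3 and 0.14 at 24 h. Protein-coding genes outside chromosome 19 with 0, 1, and 2 or more copies had medians of 0.08, -0.23 and -0.42 at 6 h, and 0.04, -0.25 and -0.35 at 24 h. Members with copies of the element thus had medians above 0, and genes elsewhere with copies had medians below 0. Of the 34 members with 1 copy, 2 were lower by at least 1.5-fold and 7 were higher at 6 h, whereas of 1733 such genes elsewhere 417 were lower and 53 higher. Of the 19 members with 2 or more copies, 2 were lower and 1 was higher at 6 h. These 19 count ZNF468 and ZNF320 apart, though their transcripts have the same coding bases. Genes elsewhere with 2 or more copies numbered 1060, of which 368 were lower and 28 higher. The members at the low end of these classes are few, and the difference between the sets was not tested. The 14 members with a 3′ UTR under 50 bases had medians of 0.44 and 0.36.

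**Figure D3:**
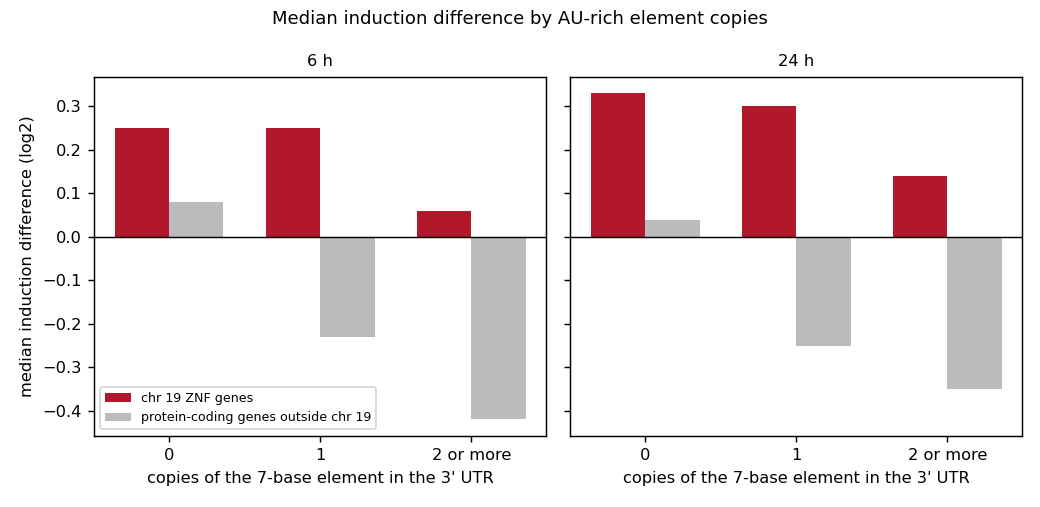
Median induction difference (log2) at 6 h and at 24 h for genes with 0, 1, and 2 or more copies of the AU-rich element in the 3′ UTR, in chromosome 19 ZNF genes (red bars) and protein-coding genes outside chromosome 19 (grey bars). The members' medians lay above 0 in all 3 classes at both times, from 0.06 to 0.33, and those of the other genes reached -0.42.

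Medians were much alike across classes of protein structure, though the share of members that were higher differed with the number of fingers. The 157 members with a KRAB pattern had median induction differences of 0.23 and 0.32, and the 30 without one had 0.28 and 0.29. By number of fingers, up to 9, 10 to 14, and 15 or more, the medians were 0.25, 0.24 and 0.25 at 6 h, and 0.27, 0.3 and 0.41 at 24 h. These classes held 45, 85 and 57 members. At 6 h, 15.6%, 15.3% and 26.3% of them were at least 1.5-fold higher and 6.67%, 3.53% and 7.02% lower. At 24 h, 13.3%, 22.4% and 40.4% were higher, against 13.9% of all genes, and 2.22%, 4.71% and 5.26% lower. The difference between these classes was not tested. The own changes in tet-ZFP36L1 at 24 h were 0.34, 0.23 and 0.51 in the same 3 classes, so proteins with the most fingers had the highest median there. Members with at least 20% shared words had medians of 0.19 and 0.29, near the 0.25 and 0.33 of the rest.

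Medians also differed with position along the chromosome, which is described first by the own changes. The members form 14 runs of neighbours less than 1000000 bases apart, and 178 of them lie in the 9 runs of 5 or more. In tet-ZFP36L1 at 6 h the 65 members of the p arm had a median own change of 0.27, with 13 (20%) at least 1.5-fold higher. The 122 members of the q arm had 0.44, with 40 (32.8%) higher, against 9.09% of all genes. At 24 h the medians were 0.11 in the p arm and 0.4 in the q arm. In tet-control the medians were 0.08 and 0.18 at 6 h, and -0.05 in both arms at 24 h. The median induction differences were 0.18 in the p arm and 0.26 in the q arm at 6 h, and 0.22 and 0.34 at 24 h.

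The low end of the p arm values lay in the clusters next to the centromere. The 19 members from ZNF101 to ZNF257, between 19668796 and 22091480 on GRCh38, had median own changes of 0.2 and -0.04 in tet-ZFP36L1 at 6 and 24 h, and the 7 from ZNF730 to ZNF254, between 23075210 and 24129961, had 0.2 and -0.14. In the second of these, 1 of 7 members lay above 0 at 24 h. The cluster that holds ZNF91 and its relatives thus stood near its 0 h level at 24 h. The other p arm clusters were higher, with 0.56 and 0.41 for the 14 members from ZNF557 to ZNF846, and 0.36 and 0.4 for the 20 from ZNF653 to ZNF791. The difference between clusters was not tested, and members of a cluster share sequence and are not independent.

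On the q arm, the 42 members of the cluster at the chromosome's end, from ZNF628 to ZNF446 (55476332 to 58481230), had median own changes of 0.45 and 0.43 in tet-ZFP36L1, against 0.17 and -0.07 in tet-control. Its induction difference was at least 1.5-fold higher in 12 members (28.6%) and lower in 1 (2.38%) at 6 h, and higher in 13 (31%) and lower in 0 at 24 h. Over all genes, 7.02% were higher and 14.3% lower at 6 h, and 13.9% higher and 17.4% lower at 24 h. The 31 members from ZNF175 to ZNF331 (51571298 to 53580269) had 0.48 and 0.45 in tet-ZFP36L1, against 0.25 and 0.06 in tet-control. By the induction difference at 6 h, 4 of its members were lower (12.9%, against 14.3% of all genes) and 0 higher. At 24 h the lower members numbered 3 (9.68%), and those higher numbered 8 (25.8%). The share lower at 6 h was thus near that of all genes. The cluster holds ZNF175, ZNF28, ZNF468 and ZNF761.

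**Figure D4:**
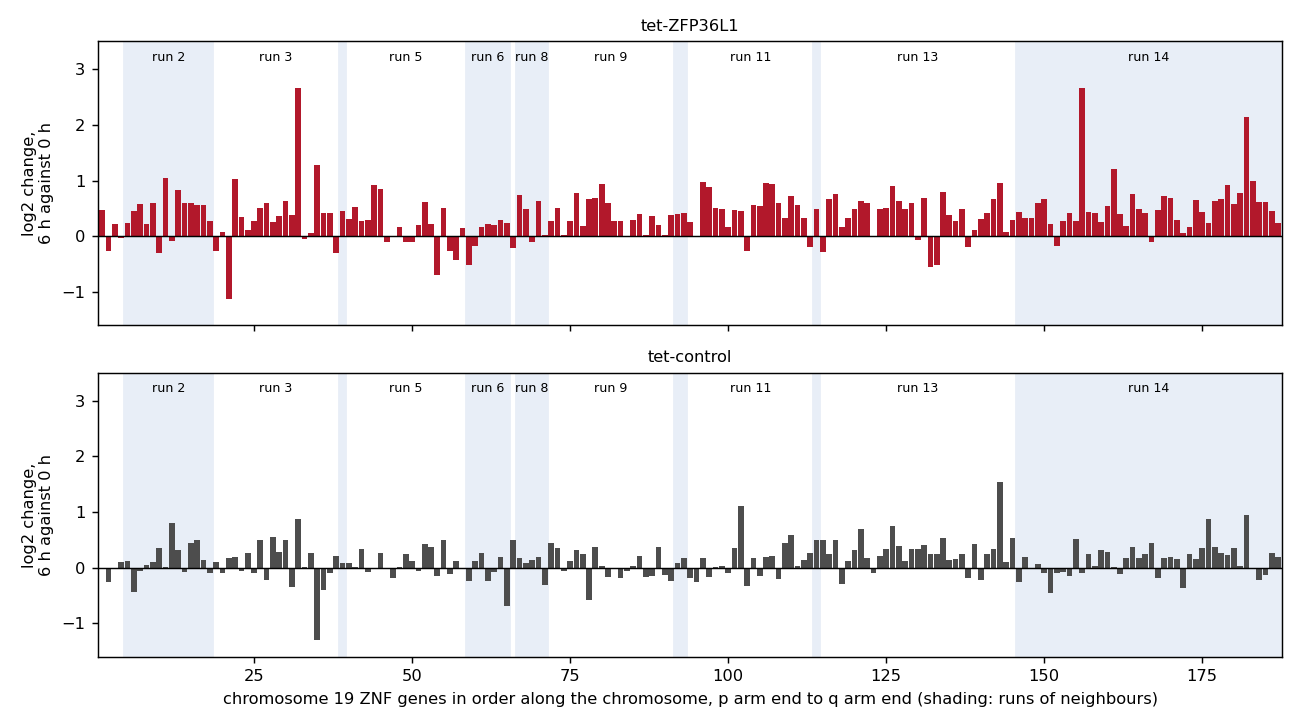
Log2 change at 6 h from 0 h of each of the 187 members, in order along chromosome 19 from the end of the p arm to the end of the q arm, for tet-ZFP36L1 (upper panel) and tet-control (lower panel), with shading for alternate runs of neighbours. Most bars of tet-ZFP36L1 lie above 0 (159 of 187), and those of tet-control are shorter, with 125 above 0.

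Promoter sequence was described by cluster. Promoters of 300 bases were matched in RefSeq (GRCh38.p14) for 170 of 187 members. The 7 letters CCGGAAG, the core bound by ETS family factors, were sought on both strands, and this motif was picked by hand, without a search over motifs. It was present in 79 members (46.5%), against 2134 of 14687 protein-coding promoters (14.5%). Those promoters include genes below the count minimum that the members had to pass, so both shares are not matched for expression. The share among measured genes alone was not computed. The number of CG dinucleotides had a median of 20 in the members and 22 in all promoters. The motif did not go with a higher induction difference, since members with it had medians of 0.23 and 0.26 at 6 and 24 h, and those without it 0.27 and 0.38. It was found in 7 of 7 promoters of the cluster from ZNF730 to ZNF254, in 26 of 38 of the cluster from ZNF628 to ZNF446, and in 2 of 20 of the cluster from ZNF653 to ZNF791. The promoter of ZNF544 is shown as a carrier of the motif, with the motif in capitals, at chr19:58228664-58228963 on the plus strand of GRCh38.p14.
ZNF544 promoter: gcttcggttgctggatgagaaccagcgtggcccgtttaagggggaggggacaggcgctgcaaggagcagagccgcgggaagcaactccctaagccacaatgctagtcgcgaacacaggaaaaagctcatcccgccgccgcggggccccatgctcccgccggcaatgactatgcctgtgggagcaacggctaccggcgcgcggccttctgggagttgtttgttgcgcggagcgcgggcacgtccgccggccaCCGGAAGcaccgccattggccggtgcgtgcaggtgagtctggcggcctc

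The lines were also compared at the same time, which leaves out the change from 0 h. The median line difference, tet-ZFP36L1 minus tet-control on the log2 scale, was -0.1 at 0 h, 0.18 at 6 h and 0.27 at 24 h. At 0 h, 8 members (4.28%) were at least 1.5-fold higher in tet-ZFP36L1, against 10% of all genes, and 19 (10.2%) were lower, against 7.98%. At 6 h, 28 (15%) were higher, against 12.4%, and 11 (5.88%) lower, against 15.3%. At 24 h, 48 (25.7%) were higher, against 18.4%, and 17 (9.09%) lower, against 20.3%. Set beside genes of like counts, the excess at 24 h was not seen in the low classes. In the classes of 50 to under 100, 100 to under 200, 200 to under 400 and at least 400 counts, 30%, 23.7%, 29.4% and 20% of the members were higher at 24 h, against 46.8%, 36.5%, 25.8% and 11.1% of genes outside chromosome 19. The median line differences at 24 h in these classes were 0.23, 0.18, 0.4 and 0.31 in the members, against 0.51, 0.29, 0.12 and -0.16 in the other genes. At 0 h they were -0.37, -0.13, -0.06 and -0.04 in the members, against 0.15, 0.1, 0.02 and -0.02. The members' medians thus lay below the control line before doxycycline and above it afterwards, while other genes of low counts lay above it at 0 h already. The lower start adds to the induction difference, and the line difference at 6 and 24 h, which has no 0 h library in it, was smaller but of the same sign.

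Members whose 3 tet-ZFP36L1 libraries all lay above the 3 tet-control libraries numbered 27 (14.4%), against 16.3% of all genes, and 24 (12.8%) lay below, against 17.5%. Both shares are near or under those of all genes. Among members with a mean count of at least 150, the largest median line difference was that of ZNF439, 1.46, with 14.9, 16.2 and 17.6 CPM in tet-ZFP36L1, against 5.11, 6.26 and 4.86 CPM in tet-control. Its induction differences were -0.15 and 0.3, so the gap was there before doxycycline and stayed. ZNF302 had 29.1, 48.9 and 43.7 CPM in tet-ZFP36L1, against 22.1, 25.1 and 22.9 CPM in tet-control, and ZNF112 had 11, 18.4 and 15.1 CPM in tet-ZFP36L1, against 6.85, 10.5 and 7.54 CPM in tet-control. ZNF564, which shared 71.3% of its words, had 10.6, 14.3 and 16.4 CPM in tet-ZFP36L1, against 9.78, 7.28 and 8.4 CPM in tet-control.

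On the other side, ZNF738, whose translated sequence held no complete finger, had 7.32, 4.35 and 5.08 CPM in tet-ZFP36L1, against 12.1, 10.8 and 10.3 CPM in tet-control. ZNF320 had 7.56, 13.5 and 8.33 CPM in tet-ZFP36L1, against 20.3, 29.5 and 16.0 CPM in tet-control. Its transcript ENST00000595635, which has the same coding bases as a ZNF468 transcript, held 59.6, 167 and 96.5 estimated counts in tet-ZFP36L1, against 273, 423 and 209 in tet-control. ZNF320 and ZNF468 were both lower in tet-ZFP36L1 than in tet-control at all 3 times, and reads moved from one to the other would change each value.

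Members with known roles differed among themselves. ZNF91, known for repressing SVA retrotransposons, had 24.9, 28.1 and 22.5 CPM in tet-ZFP36L1, against 26.7, 32.3 and 23.7 CPM in tet-control. The 2 lines ran in parallel, with induction differences of -0.1 (-0.33 to 0.14) and 0.03 (-0.22 to 0.28). ZNF274, known for bringing SETDB1 to the 3′ ends of zinc finger genes, had 2.06, 10.9 and 2.47 CPM in tet-ZFP36L1, against 4.42, 8.99 and 5.57 CPM in tet-control. Both lines were highest at 6 h and back near the start at 24 h, and the differences were 1.2 (0.68 to 1.73) and -0.09 (-0.69 to 0.51). ZNF331, an imprinted gene, had 31.2, 38.3 and 28.7 CPM in tet-ZFP36L1, against 30.5, 44.6 and 34.1 CPM in tet-control, with differences of -0.25 and -0.28. ZNF224, a KRAB repressor that shared 42.4% of its words, had 12.9, 19.2 and 20.2 CPM in tet-ZFP36L1, against 13, 14.7 and 10.2 CPM in tet-control. Its differences were 0.38 and 0.96 (0.63 to 1.29), and the lines had the same level at 0 h. ZNF350, also called ZBRK1, a partner of BRCA1, had 2.06, 3.84 and 3.52 CPM in tet-ZFP36L1, against 3.52, 5.14 and 4.15 CPM in tet-control, and its differences of 0.27 and 0.44 had intervals that held 0.

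The 2 members with the highest mean TPM carried no KRAB pattern. ZNF146, a protein of 10 fingers, averaged 96.9 TPM and had 160.2, 227 and 161 CPM in tet-ZFP36L1, against 202, 258 and 191 CPM in tet-control. Both lines were highest at 6 h, and the differences were 0.15 (0.06 to 0.23) and 0.09 (-0.01 to 0.18). ZNF428 averaged 52.0 TPM, shared 26.8% of its words, mostly with SRRM5, and had 25.5, 25.6 and 44.4 CPM in tet-ZFP36L1, against 31.6, 26.6 and 36.7 CPM in tet-control, with differences of 0.25 and 0.58.

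The genes of the proteins that KRAB zinc fingers work with had medians slightly below 0. Of 20 measured genes for TRIM28, SETDB1 and their partners, the induction difference was at least 1.5-fold lower for 2 (10%) at 6 h and 4 (20%) at 24 h, near the 14.3% and 17.4% of all genes. It was at least 1.5-fold higher for 0 of the 20 at both times, and the medians were -0.1 and -0.17. TRIM28 had 479, 576 and 458 CPM in tet-ZFP36L1, against 582, 562 and 654 CPM in tet-control, with differences of 0.32 and -0.23. SETDB1 had 42.5, 51.2 and 45.6 CPM in tet-ZFP36L1, against 33.9, 37.0 and 35.7 CPM in tet-control, with differences of 0.14 and 0.02. The scaffold and the methyltransferase thus stayed within 1.5-fold of the control line's course. HDAC1, a histone deacetylase of the recruited complex, had 235, 105 and 106 CPM in tet-ZFP36L1, against 237, 209 and 227 CPM in tet-control, with differences of -0.97 and -1.07. HDAC2 had 158, 80.2 and 74.0 CPM in tet-ZFP36L1, against 181, 150.3 and 168 CPM in tet-control, with differences of -0.71 and -0.98. The HP1 gene CBX3 (-0.89) and the chromatin remodeller SMARCAD1 (-0.63) were also lower at 24 h. The highest at 6 h were TRIM28, PPHLN1 (0.3) and CHD4 (0.29), none of which reached 1.5-fold.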

How the data were processed

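RNA of 6 J82 cultures, 1 per group, was sequenced on a BGISEQ-500, per the labels, and sample titles gave the groups. The submitters' processing notes list kallisto, DESeq2 and hg19, with no versions. For each library the deposited file holds estimated counts, which need not be whole, and TPM for 196354 transcripts. Strand use is not stated, so reads of overlapping or antisense genes could be mixed.

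Identifiers of 181857 transcripts were found in GENCODE 29 (GRCh38), which supplies all gene positions; the rest held 5.12% to 5.46% of counts. Gene sums of estimated counts were rounded and TMM-scaled on 14958 genes averaging 10 counts or more (edgeR 4.0.16, R 4.3.3). CPM values were taken to log2 after adding 0.5, with delta-method 95% counting intervals, which treat reads as separate molecules and hold no other error. Neither edgeR nor DESeq2 was used to test. The arithmetic was checked on simulated counts.

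Members, lists and comparisons were chosen with earlier results of these data known, and expression level chose the members. Named were the 8 lowest and 8 highest induction differences at each time and the 6 largest median line differences each way (mean count of at least 150, and for the first at least 10 counts in every library), the 3 highest by mean TPM, and 10 genes fixed by name. ZNF805 and the lower members with smaller counts fall outside this rule and were named after their values were seen. Of the 20 partner genes, the 3 lowest and 3 highest at each time, TRIM28 and SETDB1 could be named; SMARCAD1 falls outside this and was named after its value was seen, as the last of the 4 lower at 24 h. KRAB, SCAN and finger patterns were sought in translated GENCODE coding sequence, not in RefSeq proteins as planned, since no protein table was used here. For 3′ UTRs, the transcript of highest mean TPM that had a stop codon annotated stood for the gene. Other settings tried were size factors of DESeq2 1.42.0, plain CPM, deposited TPM, pseudocounts of 0.1 and 2, mean counts of at least 10 or 200, under 20% shared words, no 0 h library, a 2-fold threshold and a counting interval that leaves out 0. Chosen after seeing the data were KRAB members alone, leaving out members 1.5-fold apart at 0 h, and leaving out the 24 h libraries.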

Additional observations from a re-analysis of the deposited data

Results flagged for a closer look

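In 10 of the 36 members named by the rule, both values of tet-ZFP36L1 after doxycycline lay on one side of its 0 h value and both of tet-control on the other side, and the difference between the lines was not tested. Opposite moves enlarge the induction difference, by which many of the 36 were named, so the naming itself favours this pattern. It was not counted over all members or all genes, and the 10 do not describe the members at large. With 1 library at each time, a small move in 1 line can set the pattern, and the 0 h library of each line enters both of its changes.

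In 5 of these members tet-ZFP36L1 was lower than at 0 h and tet-control higher. ZNF823 had induction differences of -1.3 at 6 h and -0.95 at 24 h, and own changes of tet-control of 0.18 and 0.35. ZNF28 had induction differences of -0.82 and -1.36, which changed direction with deposited TPM, and ZNF468 had -0.76 and -0.67. For ZNF100 they were -0.55 and -1.17, with own changes of tet-control of 0.12 and 0.02. For ZNF653 they were -0.38 and -0.54.

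In the other 5 tet-ZFP36L1 was higher than at 0 h and tet-control lower. ZNF544 had induction differences of 1.0 at 6 h and 0.8 at 24 h, and own changes of tet-control of -0.01 and -0.08. ZNF784 had 0.77 and 1.22, and own changes of tet-control of -0.09 and -0.11, so in ZNF544 and ZNF784 the move of the control line was small. ZNF71 had 0.56 and 1.19. ZNF564, which shares much sequence with other genes, had 0.82 at both times. ZNF566 had 0.07 and 1.59, with an own change of tet-ZFP36L1 of only 0.02 at 6 h.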

How the results depend on the processing

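The members' medians at 6 h, 0.25 as reported, ran from 0.18 (no 0 h library) to 0.28 (plain CPM), and at 24 h, 0.32 as reported, from 0.27 to 0.49 (plain CPM), all above 0. Counts of members moved by over 1.5 times under these settings. At 24 h the lower members were 5 with plain CPM, 4 with deposited TPM and 17 with no 0 h library. With a pseudocount of 2, 6 were lower at 6 h. Among the 108 members with a mean count of at least 200, 15 were higher and 6 lower at 6 h, and 27 higher and 4 lower at 24 h, from fewer members. Under 20% shared words, 143 members left 5 lower at 6 h and 2 at 24 h. At 2-fold, 9 were higher and 1 lower at 6 h (1.6% and 4.69% of all genes), and 20 higher and 2 lower at 24 h (4.69% and 6.5%). Without members 1.5-fold apart at 0 h, chosen after seeing the data, 160 members left 6 lower at 6 h and 4 at 24 h. Without the 24 h libraries, also chosen later, 38 members had both tet-ZFP36L1 libraries below both tet-control libraries and 33 had both above, against 22.7% and 21.7% of all genes. ZNF28 changed direction with deposited TPM, to 0.08 at 6 h and 0.29 at 24 h. Of all 84 comparisons of a count or a median with another setting, 66 stayed within 1.5 times for counts or 0.1 for medians, and the other 18 are among the values above. DESeq2 size factors gave 35 higher and 9 lower at 6 h, and 48 and 8 at 24 h. A minimum mean count of 10, KRAB members alone and a counting interval that leaves out 0 moved no count by over 1.5 times. No paired analysis was possible because each group has 1 library, and the libraries of both lines at the same time are different conditions, not numbered replicates. At the members' depth, differences inside a gene's counting interval were not detectable, and the variation between cultures is unknown.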
